A study of Mus musculus with 8 samples.

Results

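The nucleus accumbens (NAc), the ventral part of the striatum, was compared between adult male C57Bl6J mice conditioned with cocaine in a place-preference chamber and mice left in the home cage. Cocaine was injected intraperitoneally at 7.5 mg/kg, and the tissue was taken 15 minutes after the experience. The home-cage mice were neither injected nor placed in the chamber as far as the labels say, so cocaine, injection and chamber cannot be told apart. Both groups share strain and sex, and the sources used here do not say whether a library is 1 animal or a pool. Each group had 2 libraries of total RNA, numbered 1 and 2, and cocaine 1 was compared with home cage 1 and cocaine 2 with home cage 2. All genes entered the comparison: of 33885 gene symbols, 18418 had enough counts to be tested. The same series holds 4 libraries of the medial prefrontal cortex (mPFC), from mice attacked by an aggressive CD1 male (social defeat) and from home-cage mice, which are used here only beside the NAc response. The p-values measure spread between these libraries, which may be technical. In the paired comparison this spread is how far the pairs disagree, mostly pooled over genes, with the difference between the numbers removed.

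Cocaine raises extracellular dopamine in the NAc by blocking its reuptake, and dopamine and glutamate inputs together drive calcium, cAMP and ERK signalling in the medium spiny neurons that make up most of the region. These signals act through transcription factors that are already present, CREB and SRF among them, and switch on immediate early genes within minutes without new protein synthesis. Many immediate early genes encode transcription factors of the Fos, Egr and Nr4a families, while others act directly, such as the synaptic protein Arc or the phosphatase Dusp1, and a delayed wave of genes for secreted and processing proteins follows.

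Library totals were 139116911 and 141245049 counts after cocaine and 179479978 and 136524731 in the home cage. The number on the library marked a larger difference than the treatment did: the first principal component of log2 levels held 65.8% of the variance and separated number 1 from number 2, and the second held 19.6% and separated cocaine from home cage. Markers of the dissected tissue followed the number. Levels are given as CPM, that is counts relative to library size, scaled with TMM factors, and are listed throughout as number 1 and then number 2 of each group. The dopamine receptor gene Drd1, which marks direct-pathway medium spiny neurons, stood at 94.6 and 36.3 CPM after cocaine and at 118 and 32.7 CPM in the home cage. The cortical vesicular glutamate transporter gene Slc17a7 stood at 592 and 910 CPM after cocaine and at 469 and 1047 CPM in the home cage. Striatal markers were thus present in all 4 libraries, and in both groups they were lower, and Slc17a7 higher, in number 2. For reference, the mPFC home-cage libraries, scaled with all 8 libraries, had 1289 and 1308 CPM of Slc17a7 and 11.1 and 10.5 CPM of Drd1. The number 2 libraries of the NAc thus lay nearer the cortical level of Slc17a7 than the number 1 libraries did. In bulk tissue, fewer cells of a type and less RNA per cell cannot be told apart.

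Within the pairs, 33 genes rose after cocaine and 5 fell, at an adjusted p under 0.05 in edgeR's quasi-likelihood test with the number as a block. These are 0.179% and 0.0271% of the tested genes. The genes that rose included 16 known activity-regulated genes, among them Npas4, Fos, Fosb, Junb, Egr2, Nr4a3, Arc and the precursors of the microRNAs miR-132 and miR-212. Of the 38 genes, 34 were annotated as protein coding, 2 as long noncoding RNAs (Gm44866 and Bc1, which is in fact short) and 2 as microRNA genes. Unadjusted p was under 0.05 for 975 genes in the upward and 332 in the downward direction. Without the block the same libraries gave 0 genes in either direction, with 211 genes at an unadjusted p under 0.05 and a smallest adjusted p of 1. DESeq2 with the block called 28 genes higher and 2 lower. The labels do not say what libraries of a number share, and the blocked fit leaves 1 residual degree of freedom, so its error rests on spread pooled over genes.

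Across all tested genes the pairs had little in common. In the first pair the median log2 ratio of cocaine to home cage was 0.0012 and in the second 6e-04, and both pairs pointed up for 4816 genes (26.1%) and down for 4720 genes (25.6%). Together 9536 genes (51.8%) kept 1 direction, and Pearson's r between the pairs was 0.0807 across genes, which are not independent replicates. A size rule narrowed the set: 141 genes (0.766%) were at least 1.5-fold higher and 56 genes (0.304%) at least 1.5-fold lower in both pairs, beside 144 genes that passed 1.5-fold in opposite directions. The plot of the pairs shows where the genes that passed lie among the others.

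**Figure D1:**
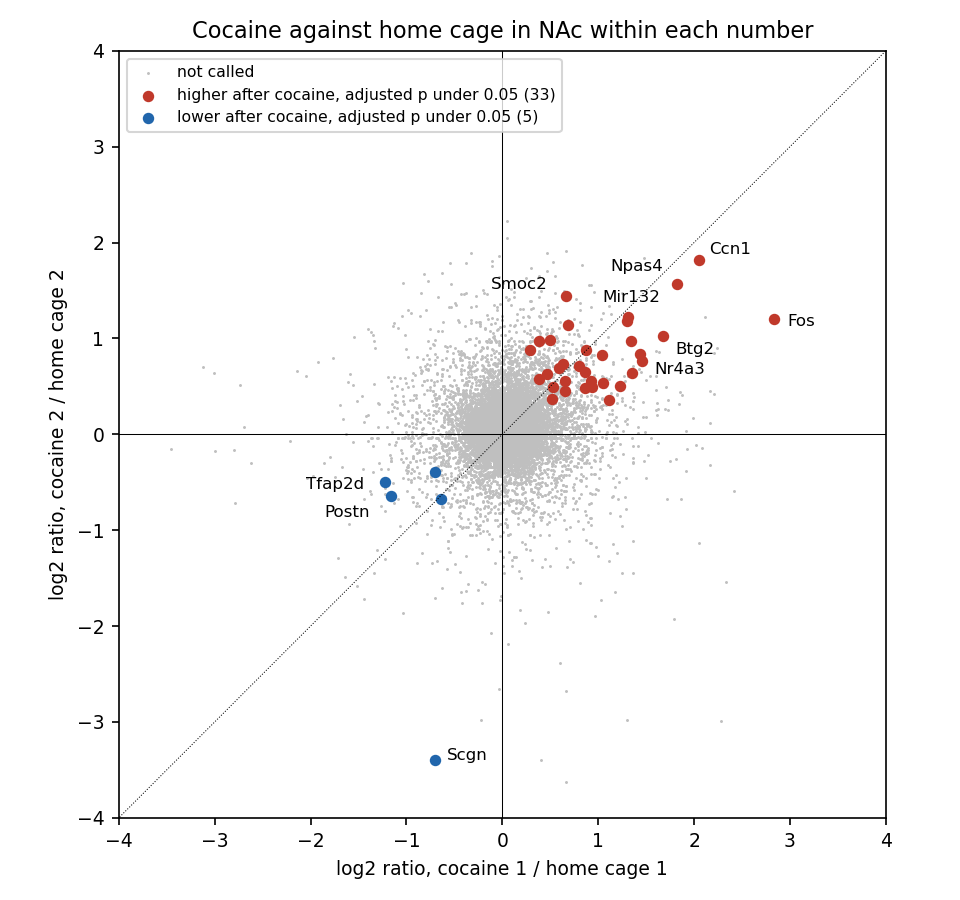
Log2 ratio of cocaine to home cage for each of the 18418 tested genes in the number 1 pair (horizontal axis) and the number 2 pair (vertical axis). Red points are the 33 genes that rose and blue points the 5 that fell at an adjusted p under 0.05; the dotted line marks equal ratios. Npas4 and Ccn1 lie near the line, Fos below it (2.84 and 1.20), and Scgn far below it (-0.70 and -3.40).

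Npas4 encodes a neuron-specific factor that is induced by calcium entry and shapes inhibitory synapses. It stood at 44.7 and 49.8 CPM after cocaine and at 12.6 and 16.8 CPM in the home cage. Both cocaine libraries were far above both home-cage libraries, and the ratios of the pairs were alike (log2 1.83 and 1.57). The paired log2 fold change was 1.70 (SE 0.0872, adjusted p = 7.68e-08, edgeR), or 3.25-fold, the smallest p of all tested genes. Npas4 lies at chr19:4984355-4990316 on the minus strand of GRCm38.

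Fos encodes the partner of Jun proteins in the AP-1 factor and is a widely used marker of recently active neurons. Its level was 14.4 and 17.8 CPM after cocaine and 2.01 and 7.74 CPM in the home cage. The groups did not overlap, but home cage 2 stood well above home cage 1, so the ratio was 7.15-fold in the first pair and 2.29-fold in the second. The paired log2 fold change of Fos (chr12:85473890-85477273, plus strand) was 1.97 (SE 0.241, adjusted p = 0.00128, edgeR), and DESeq2 with the same block gave an adjusted p of 0.607. Fosb, whose long-lived splice product accumulates under repeated cocaine, had 18.2 and 19.0 CPM after cocaine and 10.5 and 11.6 CPM in the home cage. Its pairs were close (log2 0.80 and 0.71), and it rose by 0.75 (SE 0.0891, adjusted p = 0.00108, edgeR). Both isoforms of Fosb fall under 1 symbol, so the splice product was not measured apart.

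Junb, a Jun-family partner of Fos, reached 64.7 and 64.5 CPM after cocaine against 33.7 and 46.0 CPM in the home cage. Its 2 cocaine libraries were nearly equal, so the smaller ratio of the second pair (log2 0.49, against 0.94 in the first) came with the higher home-cage level. The paired log2 fold change was 0.71 (SE 0.0958, adjusted p = 0.00332, edgeR). Junb partly overlaps Prdx2 on the other strand, and whether the counting used strand is not given in the sources used here. Atf3, a stress-induced factor of the same superfamily, was low in every library, at 1.39 and 0.822 CPM after cocaine and 0.543 and 0.413 CPM in the home cage. It rose by 1.19 on the log2 scale (SE 0.21, adjusted p = 0.028, edgeR), but without either number 1 library the value was 0.99 and did not pass (adjusted p 0.135 to 0.15).

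Egr2, a zinc finger factor, had almost the same level in libraries of a group: 4.70 and 4.76 CPM after cocaine, 1.91 and 2.09 CPM in the home cage. The number made little difference here, and both pairs gave a similar ratio (log2 1.30 and 1.18). Egr2 (chr10:67535475-67542188, plus strand) rose by 1.246 (SE 0.133, adjusted p = 0.000502, edgeR). Its relatives did not pass. Egr1 had 161 and 150 CPM after cocaine and 122 and 149 CPM in the home cage, a paired log2 fold change of 0.20 (SE 0.0927, adjusted p = 0.672, edgeR). Egr3 had 83.3 and 82.4 CPM after cocaine and 85.4 and 88.0 CPM in the home cage (-0.07, SE 0.0767, adjusted p = 0.975, edgeR). For Egr4 the paired value was 0.44 (SE 0.091, adjusted p = 0.0645, edgeR), just short of the threshold.

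Of the 3 Nr4a genes, which encode orphan nuclear receptors, Nr4a3 passed. It stood at 102 and 123 CPM after cocaine and at 37.1 and 72.9 CPM in the home cage. No home-cage library reached a cocaine library, and the first pair gave the larger ratio (log2 1.46 against 0.76). Its paired log2 fold change was 1.11 (SE 0.12, adjusted p = 0.000502, edgeR), with an adjusted p of 0.209 in DESeq2. Nr4a1 (95.7 and 101 CPM after cocaine, 56.3 and 83.8 CPM in the home cage) lay at the threshold with 0.52 (SE 0.1, adjusted p = 0.0509, edgeR), and Nr4a2 had 0.69 (SE 0.14, adjusted p = 0.0571, edgeR).

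Mir212 and Mir132 are neighbouring microRNA genes on chromosome 11 that belong to 1 activity- and CREB-regulated transcript, and miR-132 is known to regulate dendritic growth. Their main mature products are shown because they share a seed, the bases 2 to 8 that pair with targets, given here in capitals (RefSeq, GRCm38.p6, plus strand, chr11:75173443-75173464 and chr11:75173723-75173744).
miR-212-3p: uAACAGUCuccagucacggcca
miR-132-3p: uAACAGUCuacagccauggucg
Both carry the seed AACAGUC and differ only behind it. Reads at the Mir212 locus gave 4.33 and 4.27 CPM after cocaine and 1.59 and 2.38 CPM in the home cage. At the Mir132 locus they gave 0.902 and 0.949 CPM after cocaine and 0.356 and 0.398 CPM in the home cage, which is 125, 135, 63 and 55 counts. At both loci the cocaine libraries lay above the home-cage libraries. Mir212 rose by 1.14 (SE 0.156, adjusted p = 0.00383) and Mir132 by 1.30 (SE 0.22, adjusted p = 0.0228) on the log2 scale in edgeR's test. The library was made from total RNA, so these reads come from longer transcripts over the hairpins as well, and the mature microRNAs were not measured apart.

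Activity-regulated genes that do not encode transcription factors rose as well. Arc, which encodes a capsid-like protein that drives AMPA receptor removal from synapses, had 98.2 and 97.8 CPM after cocaine and 38.5 and 62.8 CPM in the home cage. As with Junb, the cocaine libraries were alike and the home-cage libraries were not. Arc (chr15:74669083-74672570, minus strand) rose by 0.99 (SE 0.121, adjusted p = 0.00128, edgeR), and DESeq2 gave an adjusted p of 0.451. Dusp1, a nuclear phosphatase that switches MAP kinases off, had 29.2 and 25.8 CPM after cocaine and 16.0 and 18.5 CPM in the home cage, and rose by 0.68 (SE 0.0963, adjusted p = 0.00536, edgeR). It partly overlaps Ergic1 on the other strand.

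The antiproliferative gene Btg2, which promotes mRNA deadenylation, had 13.9 and 19.2 CPM after cocaine and 4.36 and 9.43 CPM in the home cage. The numbers differed in both groups, yet the groups stayed apart. It rose by 1.34 (SE 0.127, adjusted p = 0.000132, edgeR). Gadd45g, a growth arrest gene linked to DNA demethylation, had 5.59 and 6.75 CPM after cocaine against 2.39 and 4.76 CPM, and rose by 0.86 (SE 0.152, adjusted p = 0.0288, edgeR). Without either number 1 library, which leaves the second pair, its value was between 0.50 and 0.51 and it did not pass (adjusted p 0.092 and 0.0941, edgeR).

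Ccn1 and Ccn2 encode secreted matricellular proteins that bind integrins and are classical SRF and YAP targets. Ccn1 stood at 7.03 and 11.3 CPM after cocaine and at 1.69 and 3.20 CPM in the home cage. It followed the number in both groups, so the pairs were alike (log2 2.05 and 1.82). Its paired log2 fold change was 1.94 (SE 0.121, adjusted p = 6.58e-07, edgeR), or 3.83-fold. Ccn2 had 24.2 and 38.3 CPM after cocaine and 13.3 and 24.4 CPM in the home cage. Cocaine 1 lay just under home cage 2, so the groups overlapped, and Ccn2 rose by 0.75 (SE 0.0855, adjusted p = 0.000757, edgeR) only as a comparison within number. Pcsk1, the prohormone convertase that cuts neuropeptide precursors, overlapped in the same way (19.5 and 28.1 CPM after cocaine, 12.4 and 20.6 CPM in the home cage), and rose by 0.55 (SE 0.0882, adjusted p = 0.0136, edgeR). The other 14 of the 16 activity-regulated genes had both cocaine libraries above both home-cage libraries, an order that 11.8% of all tested genes had.

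**Figure D2:**
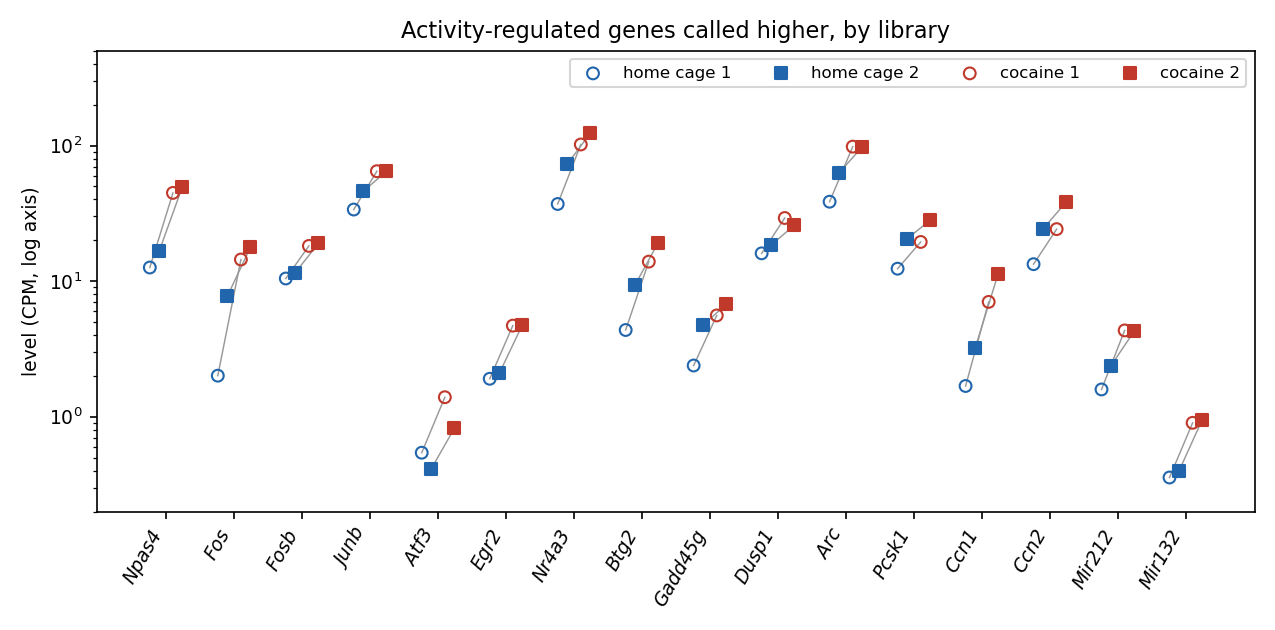
Levels (CPM, log axis) of the 16 activity-regulated genes that rose, in home cage 1 and 2 (blue) and cocaine 1 and 2 (red); open circles are number 1, filled squares number 2, and grey lines join the libraries of a number. Every line climbs, and for Fos, Nr4a3, Btg2 and Arc the home-cage libraries lie further apart than the cocaine libraries.

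The rapid immediate early genes were taken as a list of 45, chosen with earlier results of these data known. Of these, 43 were tested, 12 rose and 0 fell. Both pairs pointed up for 28 and down for 2, Egr3 and Arf4, and the median log2 fold change was 0.20, against -0.0026 over all tested genes. The first pair gave a median of 0.36 and the second 0.17, and the first was the larger in 35 of the 43 genes, as it was in 49.7% of all tested genes. The difference between numbers sat mostly in the home cage: for 36 of the 43 genes the home-cage libraries lay further apart than the cocaine libraries, against 67% of all tested genes. In the home cage number 2 exceeded number 1 by a median log2 value of 0.29 over the list, and after cocaine by 0.06. The sum over the list was 1549 and 1574 CPM after cocaine and 1200 and 1403 CPM in the home cage. Csrnp1 and Amigo3 are listed at 0 in every library.

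Among the members of that list that did not pass, several lay close to the threshold. Ier2 had 4.60 and 5.92 CPM after cocaine and 2.0 and 4.45 CPM in the home cage, a paired log2 fold change of 0.79 (SE 0.161, adjusted p = 0.0571, edgeR). Fosl2, another Fos-family gene, had 0.41 (SE 0.0919, adjusted p = 0.0812), and Tiparp, a mono-ADP-ribosyltransferase, 0.42 (SE 0.0917, adjusted p = 0.0785). Others were further from it. Jun had 48.3 and 62.4 CPM after cocaine and 38.9 and 67.5 CPM in the home cage, with opposite directions in the pairs (log2 0.31 and -0.11, adjusted p = 0.961, edgeR). Homer1, a postsynaptic scaffold gene with a short activity-induced form, had 254 and 246 CPM after cocaine and 238 and 212 CPM in the home cage (0.15, SE 0.0839, adjusted p = 0.799, edgeR).

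Of the 33 genes listed as delayed activity-regulated genes, 4 rose, namely Nr4a3, Pcsk1, Mir132 and Mir212, and 0 fell. Tissue was taken only at 15 minutes, so the name of the list does not date these rises, and Nr4a3 belongs to a family of immediate early genes. The median of the list was 0.09, with 14 genes up and 4 down in both pairs. Bdnf, the neurotrophin gene, had 10.1 and 18.1 CPM after cocaine and 5.63 and 15.1 CPM in the home cage and did not pass (0.54, SE 0.119, adjusted p = 0.0803, edgeR). Among 17 regulators that feed back on ERK signalling, Dusp1 rose and the median was -0.03. Dusp5 and Dusp6, phosphatases of ERK itself, had paired values of 0.24 (SE 0.122, adjusted p = 0.768, edgeR) and 0.20 (SE 0.0947, adjusted p = 0.694, edgeR). Their ratios in the second pair were -0.04 and 0.01.

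The 23 genes of the CREB, CRTC and SIK pathway held 0 that passed, with a median of 0.03. Creb5 was at the threshold (30.8 and 27.5 CPM after cocaine, 25.2 and 14.8 CPM in the home cage, log2 0.59, SE 0.113, adjusted p = 0.0507, edgeR). The kinase gene Sik1, itself a CREB target, had 27.5 and 30.9 CPM after cocaine and 19.7 and 28.3 CPM in the home cage (0.31, SE 0.092, adjusted p = 0.275, edgeR).

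The promoters of the genes that rose were searched for 4 motifs in the 250 bases before each RefSeq start, on both strands. These were TGACGT, the core of the cAMP response element to which CREB binds, its full palindrome TGACGTCA, which contains TGACGT, the AP-1 motif TGANTCA, and the CArG box to which SRF binds. An entry was at hand for 23 of the 33 genes. TGACGT occurred in 9 of the 12 activity-regulated genes with an entry (75.0%), namely Atf3, Btg2, Ccn1, Dusp1, Egr2, Fos, Npas4, Nr4a3 and Pcsk1. It occurred in 0 of the 11 other genes that rose and in 9.96% of the 13492 tested genes with an entry. The full palindrome occurred in Btg2, Dusp1 and Pcsk1 and in 2.65% of all. TGANTCA was found in Hrh1 and Tnfaip6 (6.06% of all), and a CArG box in Egr2 and Tmem163 (1.45% of all). A match describes the letters and shows no binding.

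Windows with matches are printed for 6 of these genes on the strand of the gene, from RefSeq on GRCm38.p6, with TGACGT or its reverse complement ACGTCA in capitals. They are the 120 bases before the start for Fos (chr12:85473770-85473889, plus strand), Ccn1 (chr3:145649986-145650105, minus strand), Pcsk1 (chr13:75089737-75089856, plus strand) and 1 of the Egr2 starts (chr10:67537749-67537868, plus strand), where the CArG box is also in capitals. For Npas4 (chr19:4989972-4990221, minus strand) and Nr4a3 (chr4:48045055-48045304, plus strand) all 250 bases are given. The Fosb window (chr7:19310046-19310165, minus strand) is shown as a gene that rose and has no match.
Fos: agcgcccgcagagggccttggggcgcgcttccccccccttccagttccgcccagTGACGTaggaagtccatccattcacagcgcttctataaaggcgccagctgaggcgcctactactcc
Ccn1: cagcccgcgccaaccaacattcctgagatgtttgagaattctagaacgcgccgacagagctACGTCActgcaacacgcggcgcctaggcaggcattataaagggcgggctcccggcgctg
Egr2: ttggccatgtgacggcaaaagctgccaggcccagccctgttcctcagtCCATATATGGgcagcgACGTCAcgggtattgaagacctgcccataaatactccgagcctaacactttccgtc
Pcsk1: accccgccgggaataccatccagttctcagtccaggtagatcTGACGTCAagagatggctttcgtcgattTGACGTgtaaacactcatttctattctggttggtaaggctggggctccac
Fosb: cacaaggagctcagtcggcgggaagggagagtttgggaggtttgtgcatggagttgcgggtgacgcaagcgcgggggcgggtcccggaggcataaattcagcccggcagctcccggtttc
Npas4: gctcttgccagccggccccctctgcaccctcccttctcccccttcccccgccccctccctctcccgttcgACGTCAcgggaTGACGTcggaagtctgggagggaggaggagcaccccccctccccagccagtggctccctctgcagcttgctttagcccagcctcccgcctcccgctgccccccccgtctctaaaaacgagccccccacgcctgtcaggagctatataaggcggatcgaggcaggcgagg
Nr4a3: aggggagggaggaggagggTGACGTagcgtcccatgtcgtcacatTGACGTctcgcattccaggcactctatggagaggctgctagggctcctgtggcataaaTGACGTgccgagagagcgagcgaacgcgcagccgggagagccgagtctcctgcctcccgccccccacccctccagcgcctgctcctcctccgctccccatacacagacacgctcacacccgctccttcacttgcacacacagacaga
The match of Fos begins 66 bases and that of Ccn1 59 bases before the start. In Egr2 the CArG box begins 72 and TGACGT 56 bases before it. Pcsk1 has the palindrome at 78 and a further TGACGT at 50 bases, Npas4 has 2 matches at 180 and 169 bases, and Nr4a3 has 3, at 231, 205 and 147 bases.

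The other 17 genes that rose are on neither activity list, and in 11 of them no home-cage library reached a cocaine library, against 11.8% of all tested genes. They include genes of cell surface and secreted proteins. Hrh1, the histamine H1 receptor, had 13.5 and 18.6 CPM after cocaine and 8.61 and 12.6 CPM in the home cage, with close pairs (log2 0.65 and 0.56), and rose by 0.60 (SE 0.0907, adjusted p = 0.00869, edgeR). Tmem163, a zinc transporter gene, had 37.5 and 50.5 CPM after cocaine and 26.1 and 35.8 CPM in the home cage. Its pairs were also close (0.52 and 0.49), and it rose by 0.51 (SE 0.0765, adjusted p = 0.00869, edgeR). It partly overlaps Mgat5 on the other strand. The amino acid transporter family gene Slc7a15 had 3.56 and 2.95 CPM after cocaine and 1.93 and 1.59 CPM in the home cage, and rose by 0.88 (SE 0.143, adjusted p = 0.0148, edgeR). It did not pass in DESeq2 (adjusted p = 0.0695) or in the fit of all 8 libraries (adjusted p = 0.0544, edgeR).

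Bc1, a short noncoding RNA that represses translation in dendrites, had 5.07 and 10.3 CPM after cocaine and 3.15 and 4.66 CPM in the home cage. It rose by 0.92 (SE 0.128, adjusted p = 0.00413, edgeR), with the larger ratio in the second pair (1.14 against 0.69), and did not pass in the 8-library fit (adjusted p = 0.06, edgeR). The long noncoding RNA gene Gm44866 rose by 0.68 (SE 0.117, adjusted p = 0.0236, edgeR). Tnfaip6, which encodes a hyaluronan-binding protein, had 6.24 and 7.16 CPM after cocaine and 4.43 and 3.61 CPM in the home cage and rose by 0.74 (SE 0.132, adjusted p = 0.0305, edgeR). Without either number 2 library, Gm44866 (0.39, adjusted p 0.261 to 0.266) and Tnfaip6 (0.50, adjusted p 0.208 to 0.221) did not pass in edgeR's test, nor did either in the 8-library fit (adjusted p = 0.112 for each) or at a CPM of at least 1 in 2 libraries (0.0565 and 0.057).

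Some of these genes followed the number strongly. Rspo2, a secreted enhancer of Wnt signalling, had 4.21 and 11 CPM after cocaine and 2.78 and 6.82 CPM in the home cage, and rose by 0.65 (SE 0.111, adjusted p = 0.0236, edgeR). Smoc2, a secreted calcium-binding matrix protein, had 1.15 and 4.93 CPM after cocaine and 0.718 and 1.80 CPM in the home cage. It rose by 1.11 (SE 0.186, adjusted p = 0.0196, edgeR), but without either number 2 library the value was 0.68 and did not pass (adjusted p 0.204 to 0.213), and DESeq2 gave an adjusted p of 0.0518. In the home cage 5 of these 17 genes differed at least 2-fold between the numbers, against 2 of the 16 activity-regulated genes. The share over all tested genes is not given here. The median absolute log2 difference between the home-cage libraries was 0.57 over the 38 called genes and 0.22 over all tested genes. Over the 14 tested cortical markers the first pair had a median of 0.20 and the second -0.10. Their sum was 1680 and 2433 CPM after cocaine and 1485 and 2742 CPM in the home cage. How far such tissue differences entered the values of these 17 genes, Rspo2 and Smoc2 among them, was not tested.

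Nxph3, a neurexophilin that binds alpha-neurexins, rose by 0.72 (SE 0.13, adjusted p = 0.0309), but its second pair had a ratio of 0.36 against 1.11 in the first, and without either number 1 library it did not pass (adjusted p 0.132 to 0.148). DESeq2 gave Nxph3 an adjusted p of 1. Galnt14, an enzyme that starts O-glycan chains, rose by 0.44 (SE 0.0792, adjusted p = 0.0314) and did not pass without either number 1 library (0.36, adjusted p 0.08 to 0.0941). Adgrg6, an adhesion G-protein-coupled receptor, rose by 0.55 (SE 0.1, adjusted p = 0.0346) and did not pass without either number 2 library (0.47, adjusted p 0.0687 to 0.0724) or in DESeq2 (adjusted p = 0.0743). Adam18, an ADAM-family gene, rose by 0.79 (SE 0.137, adjusted p = 0.0236), and Gm11639 by 0.93 (SE 0.148, adjusted p = 0.0133). Fbxw15, D7Ertd443e and Coq10b, which had the largest p among the genes that rose, had log2 fold changes of 0.68, 0.58 and 0.48, all from edgeR's test. None of them passed at a CPM of at least 1 in 2 libraries. Fbxw15 and Coq10b did not pass in DESeq2, and Fbxw15 and D7Ertd443e did not pass in the 8-library fit. With only genes at a CPM of at least 1 in 2 libraries tested, Nxph3, Galnt14, Adgrg6, Adam18 and Gadd45g among the genes that rose had an adjusted p of 0.0506 to 0.0721, and Tmem255a and Postn, which fell, of 0.0635 and 0.071 (edgeR).

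The 5 genes that fell shared no list. Tfap2d, an AP-2 family transcription factor, had 5.47 and 9.04 CPM after cocaine and 12.8 CPM in each home-cage library, and fell by 0.86 (SE 0.135, adjusted p = 0.0126, edgeR). Rprm, which encodes the cell-cycle inhibitor reprimo, had 4.40 and 6.15 CPM after cocaine and 6.86 and 9.84 CPM in the home cage. Its pairs were nearly equal (-0.64 and -0.68), and it fell by 0.66 (SE 0.107, adjusted p = 0.0148, edgeR). Postn, the matrix protein periostin, had 1.26 and 1.58 CPM after cocaine and 2.84 and 2.48 CPM in the home cage, and fell by 0.91 (SE 0.167, adjusted p = 0.0346, edgeR). It is the member of the meningeal fibroblast list that passed, whose 10 tested members summed to 27.0 and 27.9 CPM after cocaine and 28.6 and 30.1 CPM in the home cage.

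Tmem255a, a membrane protein gene, had 10.5 and 8.98 CPM after cocaine and 17.0 and 11.8 CPM in the home cage, and fell by 0.55 (SE 0.1, adjusted p = 0.0346, edgeR). Scgn, the calcium-binding protein secretagogin, had 0.137 and 0.260 CPM after cocaine and 0.232 and 2.87 CPM in the home cage. These are 19, 37, 41 and 397 counts, so the value of -2.63 (SE 0.409, adjusted p = 0.0122, edgeR) came with 1 high library, home cage 2. Without it the log2 value was -0.75 (adjusted p = 0.876, edgeR). Eomes, from the list of cortical markers, had its highest level in the same library, at 1.89 CPM against 0.0453 to 0.141 CPM in the other 3. Tfap2d (-0.50 to -0.51, adjusted p 0.0616 to 0.0799), Tmem255a (-0.39 to -0.40, adjusted p 0.175 to 0.177) and Postn (-0.65 to -0.66, adjusted p 0.157 to 0.181) did not pass in edgeR's test without either number 1 library. Groups did not overlap for 4 of the 5, all but Scgn, an order found in 11.8% of all tested genes in this direction. DESeq2 gave an adjusted p of 0.0592 for Tmem255a and 0.166 for Postn.

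Genes of dopamine signalling and striatal G-protein pathways held 0 of 25 that passed, with a median of -0.05. For 18 of them the pairs pointed in opposite directions. Drd1 had log2 ratios of -0.32 and 0.15 and Drd2 of -0.33 and 0.19, with paired values of -0.09 (adjusted p = 0.975) and -0.07 (adjusted p = 0.979, edgeR). Th, which encodes the rate-limiting enzyme of dopamine synthesis, had 2.56 and 1.72 CPM after cocaine and 3.46 and 5.42 CPM in the home cage (-1.03, SE 0.208, adjusted p = 0.0571, edgeR). Like Scgn and Eomes, Th was highest in home cage 2. Of 31 tested opioid and other reward peptides and receptors, 0 passed, 11 pointed down and 2 up in both pairs, and the median was -0.11. The enkephalin precursor gene Penk had 395 and 128 CPM after cocaine and 583 and 130 CPM in the home cage, so that its difference lay in the first pair (-0.56 against -0.02, adjusted p = 0.467, edgeR). The dynorphin gene Pdyn (-0.32 and 0.36), the substance P gene Tac1 (-0.26 and 0.24) and Cartpt (-0.78 and 0.57), which encodes the cocaine- and amphetamine-regulated transcript, had opposite ratios in the pairs.

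Of 20 tested glucocorticoid-responsive genes 0 passed, although 13 pointed up and 0 down in both pairs (median 0.15), against 26.1% and 25.6% of all tested genes. Hif3a (0.33, SE 0.107, adjusted p = 0.332) and Tsc22d3, the glucocorticoid-induced leucine zipper (0.25, SE 0.0826, adjusted p = 0.337, edgeR), were among them. Of 18 tested circadian clock genes 0 passed, and 9 pointed down in both pairs. Per1, a clock gene that is also activity-regulated, had 129 and 111 CPM after cocaine and 122 and 107 CPM in the home cage (0.06, SE 0.0775, adjusted p = 0.978, edgeR). Neither the 22 heat shock and chaperone genes, the 18 AMPA, kainate and NMDA receptor subunits nor the 40 tested cytosolic ribosomal protein genes held a gene that passed, with medians of -0.01, 0.03 and -1e-04.

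**Figure D3:**
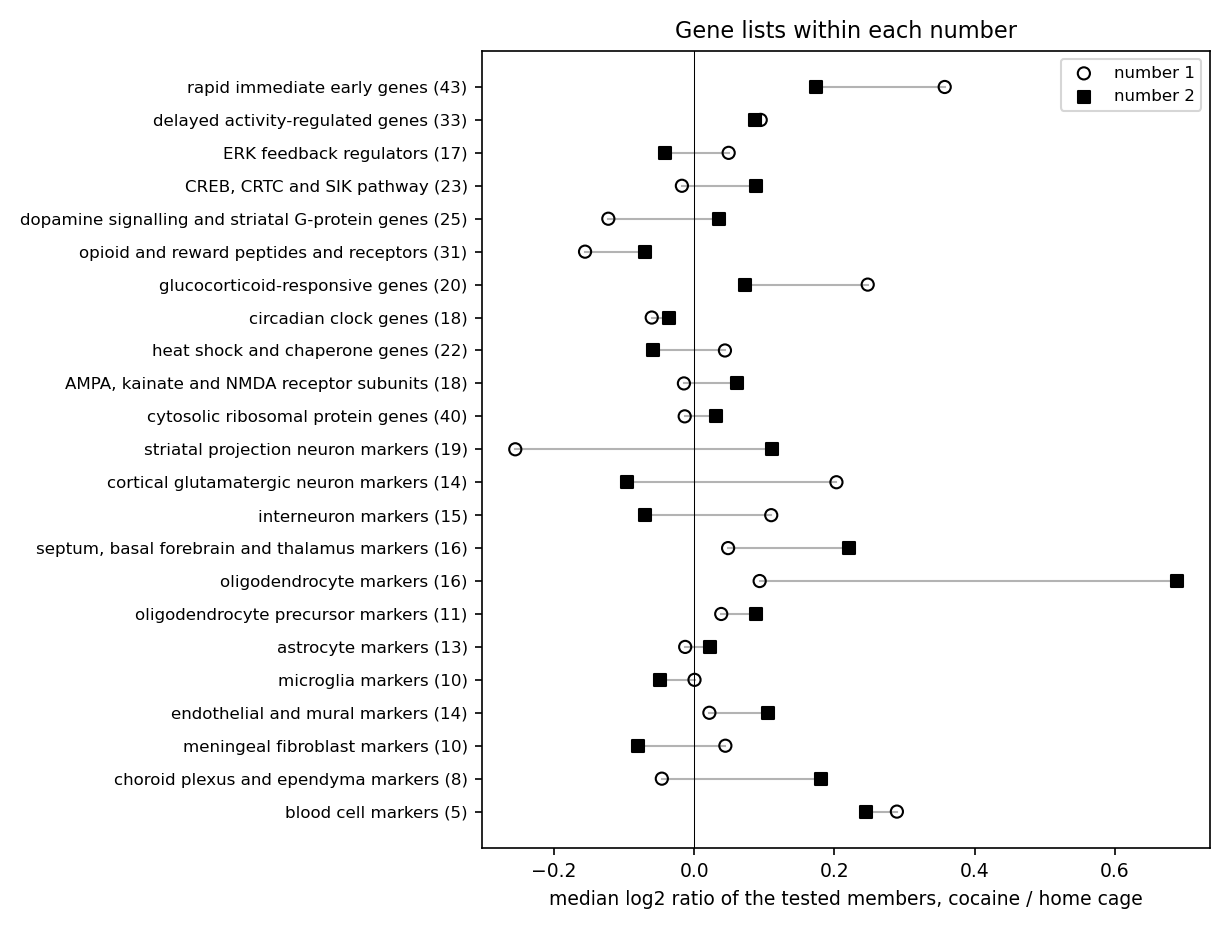
Median log2 ratio of cocaine to home cage over the tested members of each list (number in brackets), in the number 1 pair (open circles) and the number 2 pair (filled squares). The rapid immediate early genes lie at 0.36 and 0.17, the striatal markers at -0.26 and 0.11, and the oligodendrocyte markers at 0.09 and 0.69.

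Marker lists moved differently in the pairs. For 15 of the 19 striatal projection neuron markers the pairs disagreed in direction, with medians of -0.26 and 0.11, and 0 passed. Their sum was 8250 and 3534 CPM after cocaine and 9324 and 3101 CPM in the home cage. Oligodendrocyte markers had the largest share of members up in both pairs among the marker lists, 13 of 16 with 0 down, with medians of 0.09 and 0.69, though 0 passed. Their sum was 2886 and 2551 CPM after cocaine and 2696 and 1536 CPM in the home cage, so home cage 2 stood lowest. Mbp, the myelin basic protein gene, had 1267 and 1092 CPM after cocaine and 1165 and 641 CPM in the home cage (0.44, SE 0.126, adjusted p = 0.232, edgeR). Mag, the myelin-associated glycoprotein gene, had 94.7 and 85.3 CPM after cocaine and 83.8 and 52.1 CPM in the home cage (0.44, SE 0.103, adjusted p = 0.106, edgeR). The block removes only a number difference that both groups share. For the oligodendrocyte markers the median log2 difference of number 2 from number 1 was -0.80 in the home cage and -0.15 after cocaine. For the striatal markers it was -1.85 and -1.51. How far such uneven shifts entered the values of the 38 called genes was not tested.

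Markers of astrocytes (13 tested, median 0.01), microglia (10 tested, -0.02), endothelial and mural cells (14 tested, 0.09), oligodendrocyte precursors (11 tested, 0.08), interneurons (15 tested, 0.02), septum, basal forebrain and thalamus (16 tested, 0.08), choroid plexus and ependyma (8 tested, 0.01) and blood cells (5 tested, 0.28) held 0 that passed. The microglial marker P2ry12 is listed at 0 in all libraries, as are the cortical markers Sstr2 and Neurod1 and the precursor marker Gpr17. Of 493 protein-coding genes that lie inside a gene on the other strand, 493 had 0 counts in all 8 libraries, and of 325 inside a gene on the same strand, 323, against 12.3% of the 15068 without an overlap. For those at 0, no value can be given.

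Among genes that did not pass, those with the largest change in the same direction in both pairs had few counts. Upward these included Hkdc1, a hexokinase-domain gene (0.83, pairs 0.87 and 0.77, adjusted p = 0.107), the interleukin 5 receptor gene Il5ra (0.75, adjusted p = 0.134), the olfactory receptor gene Olfr115 (0.79, adjusted p = 0.0844) and Spink13 (0.70, adjusted p = 0.107, edgeR). Downward they were Npffr2, a receptor for neuropeptide FF (-0.80, pairs -0.64 and -0.96, adjusted p = 0.0507), Gcnt1 (-0.95, adjusted p = 0.0532), Cacng6 (-0.72, adjusted p = 0.132), Optc (-0.72, adjusted p = 0.246) and Vwce (-0.49, adjusted p = 0.359, edgeR).

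The response in the mPFC after social defeat came from other libraries and shares no control with the NAc pairs. In a fit of all 8 libraries, 15 of the 16 activity-regulated genes that rose in the NAc also rose in the mPFC after defeat, where 0.272% of the tested genes did so. The exception was Ccn2, with -0.11 (SE 0.0981, adjusted p = 0.965, edgeR). Of the 17 other genes that rose in the NAc, 1 rose after defeat, Coq10b, a coenzyme Q-binding protein gene (0.78, SE 0.0886, adjusted p = 0.000522, edgeR), named here after its value was seen. Its rise in the NAc did not pass in DESeq2 or at a CPM of at least 1 in 2 libraries. The 5 genes that fell held 0 that rose after defeat. The activity lists were chosen with earlier results of these data known, so these counts describe the genes and are no independent support. In the mPFC the value of Npas4 was 2.03 (SE 0.0906) and that of Ccn1 2.68 (SE 0.113), beside 1.70 and 1.94 in the NAc.

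The difference between the responses was itself tested, and 3 of 18783 genes passed (0.016%), with 1251 at an unadjusted p under 0.05. Rspo2 had the larger value in the NAc, by 0.84 (SE 0.107, adjusted p = 0.0183, edgeR). It stood at about 50.3 to 59.7 CPM in the 4 mPFC libraries. Hba-a1, an alpha-globin gene, had 18.7 and 13.5 CPM after cocaine and 13.9 and 11.7 CPM in the NAc home cage, a value that did not pass (0.31, SE 0.0932, adjusted p = 0.264). After defeat it rose by 1.54 (SE 0.0837, adjusted p = 2.11e-07), and the difference was -1.23 (SE 0.118, adjusted p = 0.00121, edgeR). Of the 5 tested blood cell markers 4 rose after defeat, and the difference passed for 1, Hba-a1. Hba-a2, a further alpha-globin gene, had 40 and 69 counts after cocaine and 29 and 24 in the NAc home cage. Its NAc value was 1.15 (SE 0.327, adjusted p = 0.232), its mPFC value 1.84 (SE 0.264) and its difference -0.68 (SE 0.396, adjusted p = 0.805, edgeR). For Ovca2, a hydrolase gene that partly overlaps Dph1, the NAc value was 0.47 (SE 0.101, adjusted p = 0.0768), the mPFC value 1.40 (SE 0.0915) and the difference -0.93 (SE 0.127, adjusted p = 0.0244, edgeR). Ovca2 (chr11:75175942-75178835, minus strand) lies near Mir132 (chr11:75173682-75173747, plus strand), and whether their values are linked was not tested. For the 16 activity-regulated genes 0 differences passed, which does not show that the responses were equal: for Junb the difference was -0.94 (adjusted p = 0.077), and for Ccn2 0.87 (adjusted p = 0.0692, edgeR). Region and experience changed together, so their parts cannot be told apart. Without any 1 of the 8 libraries the count of genes that differed ranged from 0 to 235, and without the block it was 0.

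**Figure D4:**
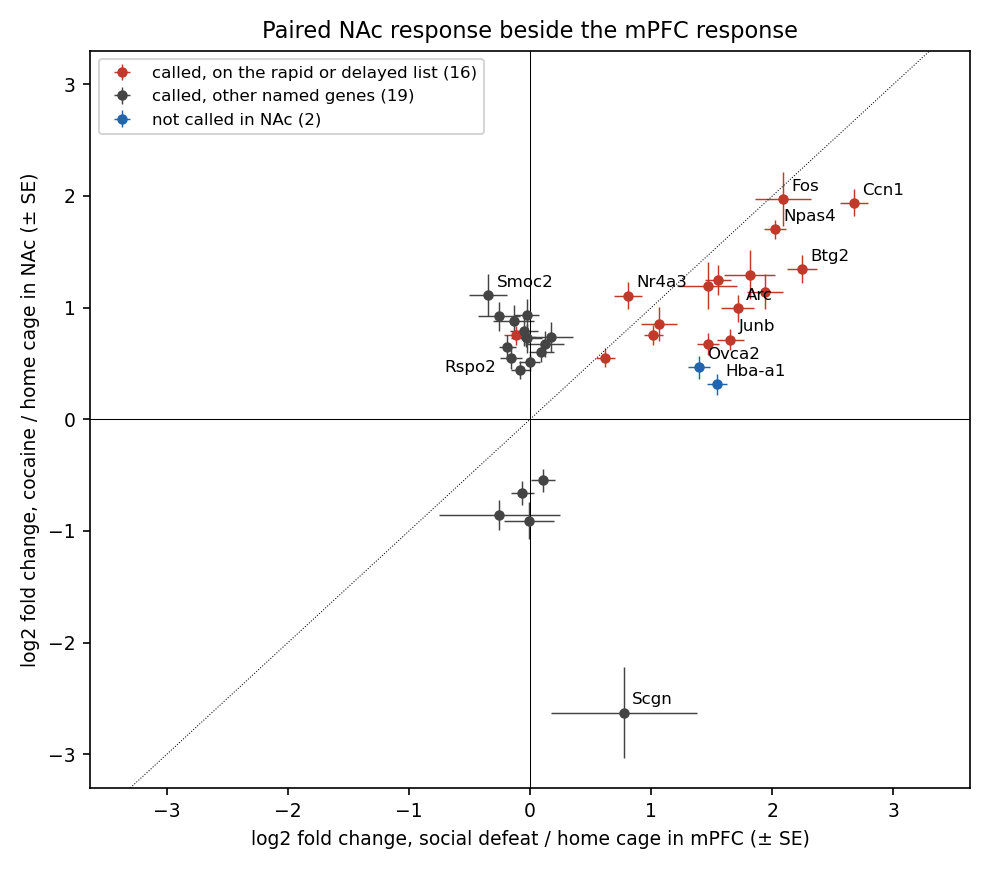
Log2 fold change in NAc within number (vertical axis, 4-library paired fit) against log2 fold change after social defeat in mPFC (horizontal axis, 8-library fit), each with its SE, for the called genes named by rule, with Hba-a1 and Ovca2. Activity-regulated genes (red) lie to the right, except Ccn2 at -0.11, and most other called genes (grey) lie nearer 0 on the horizontal axis, with Scgn at 0.77 and Smoc2 at -0.35; the dotted line marks equal values.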

How the data were processed

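Total RNA-seq of 8 libraries was used, of which the 4 NAc libraries carry the comparison. Per the submitters' processing notes, reads were aligned to mm10 with STAR 2.7.1a and counted with featureCounts, and the authors deposited raw counts per gene symbol. Which annotation was used, and how strand, introns and multimapping reads were handled, is not given in the sources used here. Of 33885 symbols, 33047 matched GENCODE M21 by symbol, 85 of them with more than 1 gene model and therefore without coordinates, and 9185 symbols had 0 counts in all libraries.

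In R 4.3.3, edgeR 4.0.16 (filterByExpr, TMM, estimateDisp, glmQLFit, glmQLFTest) fitted number and treatment over the 4 NAc libraries, with Benjamini-Hochberg adjustment over the 18418 tested genes and a threshold of 0.05. The fit had 1 residual and 14.1 prior degrees of freedom. SE was derived from the size of the log2 fold change over the root of F. Ratios of a pair are differences of log2 CPM with a prior count of 2. The script was tested on simulated data. The responses were compared in 1 fit of all 8 libraries, with the block within NAc. DESeq2 1.42.0 with the block was an alternative, beside other scaling, other filters, no block and each library left out. Figures were drawn with matplotlib 3.10.9.

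The pairing rests on the shared number alone. Deviations from the group means correlated at 0.8 between libraries of a number and at -0.8 between crossed numbers, and with 2 groups of 2 these values mirror each other.

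Members and lists were chosen with earlier results of these data known. Named genes are those that pass with the same direction in both pairs (at most 30 higher and 15 lower, by p), a panel of activity, striatal, cortical, myelin and globin genes, up to 3 members of each list by p, the 5 genes each way with the largest change in both pairs among those not passing (1 CPM or more on average in some group, no provisional models), and genes whose responses differ. Fbxw15, D7Ertd443e, Coq10b, Arf4 and genes listed at 0 were added after their values were seen. Some genes that the rule names are not reported here.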

Additional observations from a re-analysis of the deposited data

Results flagged for a closer look

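Of the named genes, 3 had a response to cocaine in NAc that differed from the response to social defeat in mPFC by a test of the difference itself (edgeR, all 8 libraries), and this is what brought them here. Hba-a1 had a difference of -1.226 on the log2 scale (adjusted p = 0.00121), Ovca2 of -0.9318 (adjusted p = 0.0244) and Rspo2 of 0.837 (adjusted p = 0.0183). Hba-a1 had 16.7 and 17.1 CPM in the mPFC home cage and 51.9 and 46.4 CPM after defeat. Ovca2 had 4.89 and 4.49 CPM in the mPFC home cage and 12.5 and 12.2 CPM after defeat. For Rspo2 the mPFC values were 59.7 and 59.3 CPM in the home cage and 54.1 and 50.3 CPM after defeat. Region and experience cannot be told apart.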

How the results depend on the processing

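The block decided the calls: without the replicate block, genes higher, genes lower, rapid immediate early genes higher and genes whose responses differ all came to 0. With the block, genes higher numbered 52 with RLE factors, 242 without the low-count filter and 21 at a CPM of at least 1 in 2 libraries, against 33, and 28 and 36 with DESeq2 and all 8 libraries. Genes lower numbered 12, 70 and 2 under the same 3 settings, 2 in DESeq2 and 6 with all 8 libraries, against 5. Of the 38 called genes, DESeq2 shared 24, RLE factors and no filter 38 each, the CPM minimum 23 and the 8-library fit 32. Leaving out 1 library leaves the other pair alone, with spread taken from the mPFC libraries, so the lone pair is assumed to vary like them. It gave 133 to 242 genes higher, 55 to 73 lower, and 23 of the 38 passed each time. Rapid immediate early genes higher stayed between 10 and 17 in every fit with the block.

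Genes at least 1.5-fold higher in both pairs numbered 141, but 19 at the CPM minimum, 572 at a looser fold threshold and 15 at 2-fold. Those lower numbered 56, but 4, 212 and 8. Genes whose responses differ numbered 41 in DESeq2 and 0 to 235 with 1 library left out, against 3. The direction reversed without the block for Pdyn (-0.17) and Slc17a7 (-0.0125), which were not called. With 1 library left out it depended on the pair for Jun (-0.12 to 0.32), Dusp5 (-0.0471 to 0.53), Drd1 (-0.31 to 0.15), Drd2 (-0.32 to 0.19), Pdyn (-0.31 to 0.36), Tac1 (-0.26 to 0.25), Cartpt (-0.78 to 0.57) and Slc17a7 (-0.21 to 0.34). The cause was not tested. Genes with few counts, such as Mir132, Atf3 and Scgn, limit what depth can show: at the CPM minimum they were not tested.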
